A study of Homo sapiens with 24 samples.

Results

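The genes described here are 36 transcripts of the MYC network and of the machinery that builds ribosomes, taken by gene symbol from the table of 18889 genes deposited for 3 estrogen receptor-positive (ER+) human breast cancer lines. All 36 symbols had a row of their own, and all 36 passed the filter on low values in each line. They fell into 6 roles, namely the MYC network (5 genes), RNA polymerase I (5), the core of the small nucleolar ribonucleoproteins or snoRNPs (6), nucleolar scaffold and chaperone proteins (5), assembly of the small ribosomal subunit (9) and assembly of the large ribosomal subunit (6).

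The lines were HCC1500, MDA-MB-175 and ZR-75-30, each an established line grown from a single tumor, so that a difference between lines cannot be separated from a difference between tumors. For each line, 4 samples were kept in low glucose (LG, 5 mM, the control) and 4 in high glucose (HG, 25 mM, a model of hyperglycemia) for 48 hours, and RNA from all 24 samples was sequenced on an Illumina HiSeq. Per the study's methods, the cells had been conditioned in low glucose first and were kept in medium without serum during the treatment, and mannitol was added to the low glucose medium in only some experiments. No source used here says that it was added in this one. Glucose and osmolarity therefore cannot be told apart in these groups. No source used here says whether the 4 replicates of a group were separate cultures, so p-values measure the spread between these samples, which may be technical.

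MYC is a transcription factor that pairs with MAX and binds the E-box, a short palindromic DNA motif, while MXD1, MXD4 and MXI1 compete with MYC for MAX and repress transcription at the same motif. Ribosomal RNA is transcribed in the nucleolus by RNA polymerase I, is modified by snoRNPs, and is folded, cut and bound to proteins by many assembly factors before the subunits leave for the cytoplasm. Genes of this pathway are among the best known MYC targets, and MYC is often amplified or strongly expressed in breast cancer.

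The deposited values are called normalized read counts below, and each was a whole number of reads multiplied by 1 factor per sample. The recovered reads totaled 9140024 to 17998819 per sample, and 3 reads, taken as the floor of detection, were worth between 0.953 and 2.29 normalized read counts. In HCC1500 the HG libraries had 9423472 to 12140912 reads and the LG libraries 13190982 to 17998819, so depth and glucose moved together in that line, and the part of depth in the results was not tested. HCC1500 HG replicate 3 stood apart from the other 3 HG samples. Its values summed to 7319781 against 5559394 to 5604083, and its values for all 36 members lay outside the range of the other 3, above it for 24 and below it for 12. The counts of members called in HCC1500 and the changes of the members described in that line are therefore also given without that library. TXNIP, a gene known to be induced by glucose, was used to check the labels and was higher in every HG than in every LG sample of its line, at 5080.0 to 5509.8 against 2475 to 2615 in HCC1500, 2477 to 2591 against 1880.1 to 2005 in MDA-MB-175 and 1019.8 to 1077 against 603 to 648 in ZR-75-30.

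The summed level of 6 luminal epithelial markers (ESR1, GATA3, FOXA1, KRT8, KRT18 and EPCAM) lay between 18905 and 43350.4 in every group, and all 6 were detected in each sample. The 5 fibroblast markers summed to between 78.6 and 295. COL1A1 was at 169 to 256 in HCC1500, 67.1 to 82.3 in MDA-MB-175 and 78.1 to 116 in ZR-75-30. In the same order, LUM was at 25.7 to 50.5, 19.4 to 67.8 and 0 to 1.37, and COL3A1 at 5.4 to 12, 8.65 to 22.9 and 0 to 0.521. DCN reached at most 0.743, 2.03 and 0, and PDGFRB at most 0.318, 1.56 and 1.11. The 2 leukocyte markers with a row, CD14 and CD68, summed to 33.6 to 43.9 at HG against 5.54 to 6.82 at LG in ZR-75-30, to 10 to 28.2 against 1.72 to 3.8 in HCC1500, and to 5.08 to 12.5 against 2.01 to 5.69 in MDA-MB-175. The 2 genes did not move together. CD68 reached at most 43.9 and CD14 at most 2.08 in ZR-75-30, against 3.69 and 26.7 in HCC1500 and 8.32 and 4.54 in MDA-MB-175. The part of these markers in the results below was not tested. The 2 endothelial markers with a row, VWF and CDH5, summed to at most 77.7 and were highest in MDA-MB-175.

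The first question was how these genes responded to high glucose within each line. A gene was called when its limma adjusted p-value was under 0.05 over all genes tested in that line. In MDA-MB-175, 4 members rose and 7 fell, where 11.9% of all tested genes rose and 13.7% fell. The median log2 change of the 36 members was -0.069, beside -0.023 over all genes tested. In ZR-75-30, 5 members rose and 21 fell, where 23.4% of all tested genes rose and 22.7% fell, and the median was -0.19 for the members beside 0.012 for all genes. In HCC1500, 11 members rose and 1 fell, where 7.46% of all tested genes rose and 13% fell, and the median was 0.42 for the members beside -0.064 for all genes. Without HG replicate 3, 26 members rose and 4 fell in HCC1500, where 20.9% of all genes rose and 37.7% fell, and the medians were 0.28 and -0.12. The share of members that fell in ZR-75-30 and the share that rose in HCC1500 were thus well above those of all genes, while in MDA-MB-175 the share that rose was close to that of all genes.

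The spread of the samples was also compared. High and low glucose samples did not overlap for 23 of the 36 members in ZR-75-30, with HG above LG for 4 and below for 19, where HG lay above LG for 20.9% of all tested genes and below for 21.1%. In MDA-MB-175 they did not overlap for 10 members, with HG above LG for 4 and below for 6, where the shares of all genes were 12.7% and 13.9%. In HCC1500 they did not overlap for 22, with HG above LG for 20 and below for 2, where the shares were 13.7% and 18.7%. When HG replicate 3 was left out they did not overlap for 29, with HG above LG for 25 and below for 4, where the shares were 21% and 37.1%. In MDA-MB-175 the members thus stood close to all genes. Of the 36 members, 5 were called higher in HCC1500 and lower in ZR-75-30 (POLR1C, NOP56, NOP58, NOLC1 and RRP12), where 1.02% of the 14884 genes tested in both lines were, and the count was 15 without HG replicate 3, where the share was 3.79% of 14813. No member was called in opposite directions in MDA-MB-175 and ZR-75-30, where 0.933% of the 15440 genes tested in both rose in the former and fell in the latter and 1.04% did the reverse, so that a count of 0 was near the background. Both lines shared 6 falls (UBTF, DKC1, NHP2, NCL, NOLC1 and BOP1), where 8.57% of the genes fell in both. They shared 2 rises (MXI1 and GNL3), where 7.35% rose in both, so that this count was near the background. HEATR1, DDX10, PES1 and RRP1B were called in no line, although HEATR1, PES1 and RRP1B were called higher in HCC1500 without HG replicate 3.

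**Figure D1:**
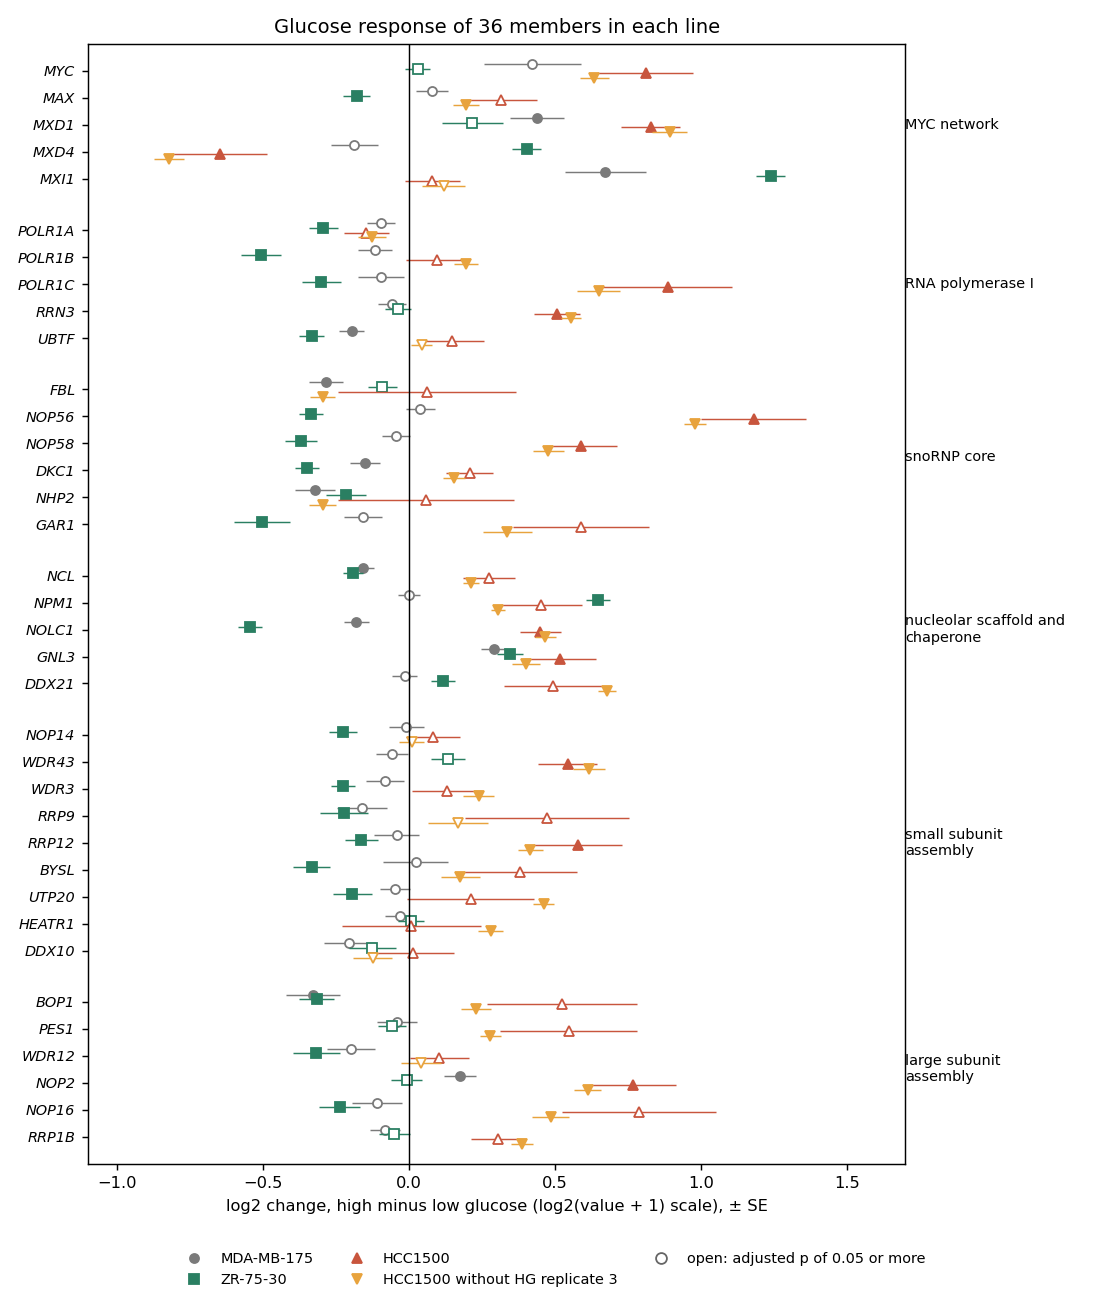
Log2 change of each of the 36 members from low to high glucose (x axis, log2(value + 1) scale) in each line, with bars of ± 1 SE from limma, grouped by role. Inverted triangles are HCC1500 without HG replicate 3. Filled symbols have an adjusted p under 0.05, and most of the ZR-75-30 squares lie left of 0 (21 called lower) while most of the HCC1500 triangles lie right of it (11 called higher, or 26 without HG replicate 3).

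Whether the response differed between lines was tested by the interaction of line and glucose in 1 limma fit on all 24 samples. It passed for 27 of the 36 members, where it passed for 29.3% of all 18144 genes tested. Without HG replicate 3 it passed for 32 members, where it passed for 48.6% of all genes. The 24-sample fit estimates 1 spread for all groups, and with all samples the SE of the GAR1 change was 0.161 in each line. In the fits of single lines that SE was 0.233 in HCC1500, 0.065 in MDA-MB-175 and 0.096 in ZR-75-30. The shared fit can therefore understate the spread in HCC1500 and overstate it in the other lines. The response in HCC1500 was more positive than in ZR-75-30 for 24 members and more negative for 2 (MXD4 and MXI1), where it was more positive for 9.99% of all genes and more negative for 15.2%. Leaving out HG replicate 3 gave 29 and 3 (NPM1 as well), where the shares were 14.9% and 25.6%. The response in HCC1500 was more positive than in MDA-MB-175 for 17 members and more negative for MXD4 and MXI1, where the shares of all genes were 6.46% and 11.3%. Leaving out HG replicate 3 gave 23 and the same 2, where they were 11.3% and 21.1%. The responses of ZR-75-30 and MDA-MB-175 differed for 5 members, MXD4, MXI1 and NPM1 with the more positive change in ZR-75-30, and POLR1B and NOLC1 with the more negative one, where the shares were 5.64% and 5.54%. That count rested on HCC1500 HG replicate 3, which enters it through the shared estimate of the spread. Leaving it out gave 15, the same 3 more positive and 12 more negative (MYC, MAX, POLR1A, POLR1B, UBTF, NOP56, NOP58, DKC1, GAR1, NOLC1, NOP14 and BYSL), where the shares were 13.3% and 12.6%. The 9 members that did not pass the interaction test were POLR1A, FBL, NHP2, GNL3, RRP9, UTP20, HEATR1, DDX10 and PES1, of which PES1 passed the comparison of HCC1500 with ZR-75-30 alone, and FBL, NHP2, GNL3 and DDX10 remained without HG replicate 3.

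MYC itself is the DNA-binding activator of the network. The 4 HCC1500 samples held 253, 268, 250 and 258 normalized read counts of MYC at LG and 378, 398, 649.7 and 423 at HG. All 4 HG samples were above all 4 LG samples, and replicate 3 was the highest of them. The log2 change was 0.81 ± 0.16 (SE, adjusted p = 0.00911), a 1.75-fold rise on the log2(value + 1) scale, and 0.64 ± 0.049 (SE, adjusted p = 3e-09) without that library. In MDA-MB-175 the samples held 20.1, 22.1, 21.6 and 17.3 at LG and 29.1, 32.9, 22.3 and 26.3 at HG, which again did not overlap, but the change of 0.42 ± 0.17 (SE, adjusted p = 0.0758) missed the threshold. In the fit on all 24 samples, which estimates 1 spread for all groups, the same change had an adjusted p of 0.0348. In ZR-75-30 the values were 699.7, 685, 732 and 652 at LG and 687, 729, 708 and 698 at HG, which overlapped, with a change of 0.029 ± 0.043 (SE, adjusted p = 0.626). The HCC1500 response exceeded that of ZR-75-30 by 0.78 ± 0.18 (SE, adjusted p = 0.00255) on the log2 scale, whereas its difference from MDA-MB-175 was 0.39 ± 0.18 (SE, adjusted p = 0.156). With HG replicate 3 left out these were 0.61 ± 0.12 (SE, adjusted p = 0.000338) and 0.21 ± 0.12 (SE, adjusted p = 0.207). The gene lies on chromosome 8 at 128747680 to 128755197 on the plus strand of GRCh37, and 194 bases of its exons overlap CASC11 on the other strand. Since no source used here says that reads were counted by strand, reads of the 2 genes cannot be told apart there.

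MAX is the obligate partner of MYC and of the MXD proteins. In ZR-75-30 its values were 444, 420.3, 406 and 418 at LG and 371, 371, 375 and 372 at HG, all HG samples lying below all LG samples, with a change of -0.18 ± 0.046 (SE, adjusted p = 0.00336). In HCC1500 they were 312, 328, 309 and 327 at LG and 370.5, 354, 510.1 and 373 at HG. The HG samples were all higher, but the change of 0.32 ± 0.12 (SE, adjusted p = 0.104) was called only without HG replicate 3, at 0.20 ± 0.044 (SE, adjusted p = 0.000902). In MDA-MB-175 the values of 267, 256, 258 and 234 at LG and 269.6, 262, 267 and 272 at HG overlapped, with a change of 0.079 ± 0.056 (SE, adjusted p = 0.339). Of the 6257 exon bases of MAX, 1629 overlap genes on the other strand, FNTB among them.

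MXD1, a repressor that pairs with MAX, rose in 2 lines. In HCC1500 it went from 175, 182, 205 and 201 at LG to 343, 349, 295 and 372 at HG, a change of 0.83 ± 0.10 (SE, adjusted p = 0.000885), and of 0.89 ± 0.060 (SE, adjusted p = 4.67e-10) without HG replicate 3. In MDA-MB-175 it went from 90.7, 83.1, 85.4 and 106 to 111, 124, 135 and 125, a change of 0.44 ± 0.093 (SE, adjusted p = 0.00226). The conditions did not overlap in either line, and HG replicate 3 was here the lowest of the HCC1500 HG samples. In ZR-75-30 the values of 67.6, 77.9, 70.1 and 71 at LG and 87, 72.2, 81.6 and 93.9 at HG overlapped, with a change of 0.22 ± 0.10 (SE, adjusted p = 0.0985). HCC1500 responded more strongly than ZR-75-30, by 0.61 ± 0.14 (SE, adjusted p = 0.00176), and by 0.68 ± 0.12 (SE, adjusted p = 0.000112) without HG replicate 3.

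MXD4, a related repressor, went opposite ways. In ZR-75-30 it rose from 424, 394, 423 and 425 at LG to 574, 579, 536 and 518 at HG, a change of 0.40 ± 0.049 (SE, adjusted p = 1.81e-06). In HCC1500 it fell from 261, 273, 275 and 276 to 156, 147, 248 and 156, a change of -0.65 ± 0.16 (SE, adjusted p = 0.0228). Neither line's conditions overlapped, and the change in HCC1500 was -0.82 ± 0.052 (SE, adjusted p = 2.27e-10) without HG replicate 3, whose value lay nearest to the LG samples. Leaving out any 1 of the other 7 HCC1500 samples ended the call, at adjusted p of 0.0588 to 0.0679 with limma, while the change stayed between -0.67 and -0.57. In MDA-MB-175 the values were 158, 136, 151 and 129 at LG and 131, 128, 121 and 123 at HG, with some overlap and a change of -0.19 ± 0.079 (SE, adjusted p = 0.0965). The HCC1500 and ZR-75-30 responses differed by -1.05 ± 0.16 (SE, adjusted p = 2.64e-05), and by -1.23 ± 0.082 (SE, adjusted p = 3.44e-11) without HG replicate 3.

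MXI1, the third of these repressors, had the largest rise among the members in ZR-75-30. Its values there were 214, 222, 201 and 211 at LG and 507, 486, 501 and 513 at HG, a change of 1.24 ± 0.050 (SE, adjusted p = 1.03e-12) or 2.36-fold. In MDA-MB-175 it rose from 35.3, 40.9, 33 and 49.3 to 60.3, 72.1, 54.7 and 66.2, a change of 0.67 ± 0.14 (SE, adjusted p = 0.00184). The HG samples were above the LG samples in both lines. In HCC1500 the values of 98.8, 106, 97 and 102 at LG and 110.3, 105, 98 and 114 at HG overlapped, with a change of 0.079 ± 0.094 (SE, adjusted p = 0.612), and of 0.12 ± 0.074 (SE, adjusted p = 0.183) without HG replicate 3. The rise in ZR-75-30 was larger than that in MDA-MB-175 by 0.57 ± 0.14 (SE, adjusted p = 0.00948), and by 0.57 ± 0.13 (SE, adjusted p = 0.00197) with HCC1500 HG replicate 3 left out of the fit.

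To set MYC beside MAX, values were divided by summed exon length. This length joins the exons of all annotated transcripts of a gene, so it can exceed the length of the transcript expressed. At LG, MYC had 42.1 normalized read counts per kb in HCC1500 against 51 for MAX, 3.32 against 40.5 in MDA-MB-175, and 113 against 67.5 in ZR-75-30. The ratio of MYC to MAX per kb in HCC1500 was 0.825 ± 0.0123 (SD, n = 4) at LG and 1.17 ± 0.106 at HG. It was 0.0818 ± 0.00637 and 0.106 ± 0.0184 in MDA-MB-175, and 1.68 ± 0.115 and 1.94 ± 0.0488 in ZR-75-30. The ratios of the 2 conditions did not overlap in ZR-75-30 or HCC1500. By this measure, the MYC transcript was thus the scarcer of the pair in MDA-MB-175 and the more abundant in ZR-75-30.

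**Figure D2:**
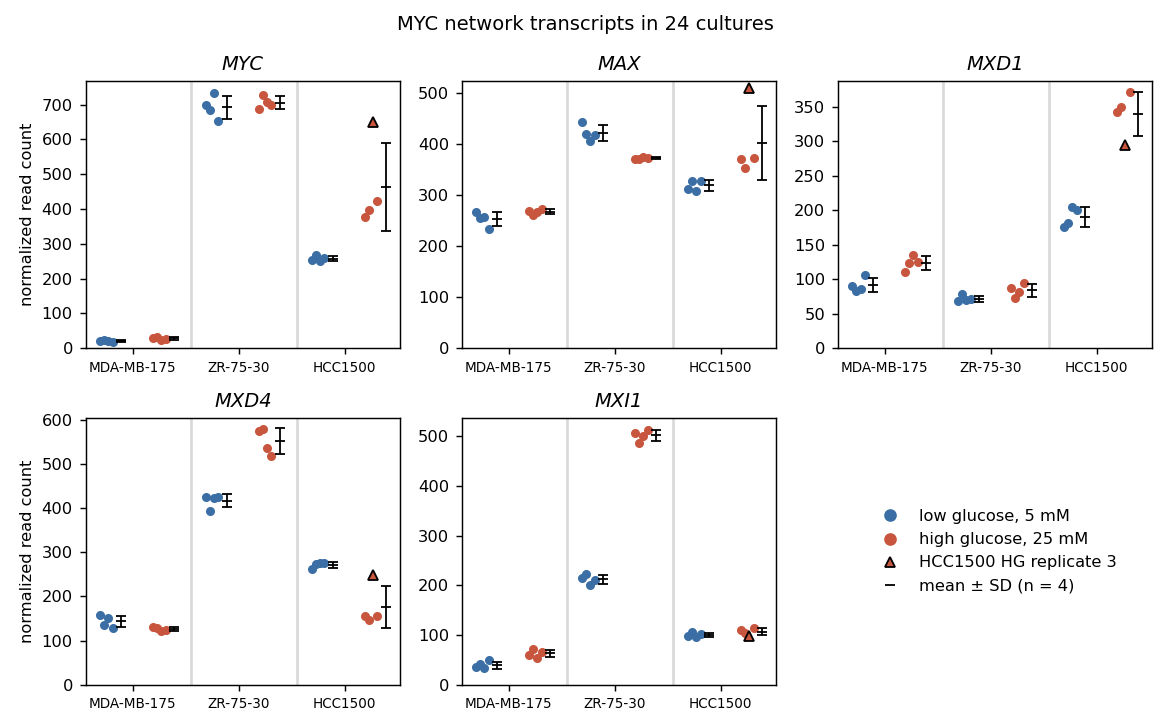
Normalized read count (y axis, from 0) of MYC, MAX, MXD1, MXD4 and MXI1 in each of the 24 samples, blue for low and red for high glucose, with the mean ± SD of the 4 samples beside them. MYC stayed between 17.3 and 32.9 in MDA-MB-175 and between 652 and 732 in ZR-75-30, and the triangle of HCC1500 HG replicate 3 lies apart from the other HG points of MYC, MAX and MXD4.

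MYC and MAX together recognize the E-box CACGTG, which reads the same on both strands. RefSeq windows of 300 bases, from 250 before to 50 after the annotated transcription start on GRCh38.p14, were at hand for 30 of the 36 members, and 12 of the 30 (40%) had the motif in at least 1 window. Over all genes with a window it was 8.77% of 27305, and over the 9482 such genes that passed the filter in all 3 lines it was 12.7%. By window, the motif was in 12 of 40 windows of members (30%) and in 7.26% of all 35116. The 12 were MXD4, FBL, GAR1, GNL3, DDX21, NOP14, WDR43, RRP9, BYSL, UTP20, PES1 and NOP2. They included none of RNA polymerase I and 5 of the 9 small subunit assembly genes, of which RRP12 had no window to search. A match describes these letters and is not a measured binding site. MYC, NOP58, NOLC1, RRP12, BOP1 and RRP1B had no window. The members with the motif included some that moved alike in the lines and some that did not, and 6 are shown with up to 12 bases on each side of it, in capitals, read 5′ to 3′ along the strand of the gene. The calls named beside them are those with all samples. Without HG replicate 3, DDX21 and UTP20 were also called higher in HCC1500, by 0.68 and 0.46 on the log2 scale, and FBL was called lower, at -0.30.
GNL3, chr3:52686026-52686055, plus strand, called higher in all 3 lines: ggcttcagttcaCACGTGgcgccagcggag
MXD4, chr4:2262330-2262359, minus strand, called in opposite directions in 2 lines: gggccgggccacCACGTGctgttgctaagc
NOP2, chr12:6568242-6568268, minus strand, higher in MDA-MB-175 and HCC1500: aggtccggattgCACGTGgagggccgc
DDX21, chr10:68956604-68956633, plus strand, higher in ZR-75-30: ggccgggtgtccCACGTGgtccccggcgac
UTP20, chr12:101280083-101280112, plus strand, lower in ZR-75-30: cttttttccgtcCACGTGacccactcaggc
FBL, chr19:39846356-39846385, minus strand, lower in MDA-MB-175: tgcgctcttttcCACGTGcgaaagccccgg

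Read against the responses, the 12 members with the motif and the 18 without it had these calls. In ZR-75-30, 3 of the 12 rose and 5 fell, against 2 and 12 of the 18. In MDA-MB-175, 2 of the 12 rose and 1 fell, against 2 and 4 of the 18. In HCC1500, 3 of the 12 rose and 1 fell, against 4 and 0 of the 18, and without HG replicate 3 it was 8 and 2, against 12 and 2. Over all genes tested, 23.4% rose and 22.7% fell in ZR-75-30, and 11.9% rose and 13.7% fell in MDA-MB-175. In HCC1500, 7.46% rose and 13% fell, or 20.9% and 37.7% without HG replicate 3. Both sets of members therefore held rises and falls, and no test was run between them.

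RNA polymerase I makes the large precursor of ribosomal RNA. Of its 5 genes here, POLR1A and POLR1B encode the 2 largest subunits, POLR1C a subunit shared with RNA polymerase III, RRN3 the initiation factor that links the enzyme to the promoter, and UBTF the factor that holds ribosomal DNA open. In ZR-75-30, 4 of the 5 fell, with log2 changes of -0.51 (POLR1B), -0.33 (UBTF), -0.30 (POLR1C) and -0.29 (POLR1A). In HCC1500, POLR1C rose by 0.89 ± 0.22 (SE, adjusted p = 0.0225), from 157 ± 12.9 to 303 ± 116 (mean ± SD, n = 4), and by 0.65 ± 0.075 (SE, adjusted p = 6.25e-07) without HG replicate 3. Its call was lost without LG replicate 1, 2 or 3 or HG replicate 4, at adjusted p of 0.0505 to 0.0686 with limma. In MDA-MB-175 only UBTF was called among the 5, with a change of -0.20 ± 0.043 (SE, adjusted p = 0.00307). POLR1B, the second largest subunit, had means of 267 ± 22.5 at LG and 188 ± 11 at HG in ZR-75-30 (SD, n = 4), and 357 ± 5.96 and 385 ± 49.3 in HCC1500, where its change was 0.097 ± 0.11 (SE, adjusted p = 0.573) with all samples and 0.20 ± 0.041 (SE, adjusted p = 0.000493) without HG replicate 3. Its responses in ZR-75-30 and MDA-MB-175 differed by -0.39 ± 0.11 (SE, adjusted p = 0.0248), and by -0.39 ± 0.076 (SE, adjusted p = 0.000423) with HCC1500 HG replicate 3 left out of the fit. POLR1A, the largest subunit, was 461 ± 19.7 and 376 ± 18.9 in ZR-75-30, and it did not pass the interaction test with all samples, but did without HCC1500 HG replicate 3.

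RRN3 stood out for a response seen in HCC1500. Its values there were 833, 831, 790.3 and 839.7 at LG and 1167, 1215, 1059 and 1249 at HG, all HG samples lying above all LG samples, with a change of 0.51 ± 0.078 (SE, adjusted p = 0.00259), and of 0.56 ± 0.034 (SE, adjusted p = 1.32e-10) without HG replicate 3. In MDA-MB-175 they were 459, 464, 473 and 495 at LG and 441, 441, 454 and 482 at HG, with overlap and a change of -0.057 ± 0.048 (SE, adjusted p = 0.437). In ZR-75-30 they were 499, 459, 498 and 475 at LG and 459, 483, 481 and 459 at HG, again with overlap and a change of -0.037 ± 0.045 (SE, adjusted p = 0.547). HCC1500 thus differed from ZR-75-30 by 0.54 ± 0.074 (SE, adjusted p = 9.36e-06) and from MDA-MB-175 by 0.56 ± 0.074 (SE, adjusted p = 1.02e-05), or by 0.59 ± 0.056 (SE, adjusted p = 1.06e-08) and 0.61 ± 0.056 (SE, adjusted p = 9.77e-09) without HG replicate 3. RRN3 has 3 named pseudogenes, and the counting of reads shared with them is not given in the sources used here.

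The snoRNP core genes encode the protein shells of the 2 classes of guide RNAs. FBL (fibrillarin, the methyltransferase), NOP56 and NOP58 belong to box C/D particles, and DKC1 (dyskerin, the pseudouridine synthase), NHP2 and GAR1 to box H/ACA particles. In ZR-75-30, 5 of the 6 fell, with log2 changes from -0.50 (GAR1) to -0.22 (NHP2), and FBL changed by -0.091 ± 0.050 (SE, adjusted p = 0.147). The call of NHP2 in ZR-75-30 was lost without LG replicate 1, at an adjusted p of 0.0545 with limma. In MDA-MB-175, NHP2, FBL and DKC1 fell. In HCC1500, NOP56 and NOP58 rose. GAR1 had means of 174 ± 14.1 at LG and 123 ± 18.2 at HG in ZR-75-30 (SD, n = 4), and 95 ± 5.98 and 151 ± 62 in HCC1500, where its change was 0.59 ± 0.23 (SE, adjusted p = 0.111) with all samples and 0.34 ± 0.084 (SE, adjusted p = 0.00209) without HG replicate 3. FBL had means of 579 ± 39.3 and 475 ± 31.5 in MDA-MB-175, a change of -0.28 ± 0.059 (SE, adjusted p = 0.00202).

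NOP56 had the largest rise of the 36 members in HCC1500. Its values were 407, 414, 409.9 and 420.3 at LG and 854, 792, 1418 and 801 at HG, a change of 1.18 ± 0.18 (SE, adjusted p = 0.00247) or 2.27-fold. Without HG replicate 3 the change was 0.98 ± 0.038 (SE, adjusted p = 2.33e-13), and the conditions did not overlap with or without that library. In ZR-75-30 it fell from 1268, 1289, 1335 and 1272 to 970.2, 1088, 1051 and 984, a change of -0.34 ± 0.042 (SE, adjusted p = 2.48e-06). In MDA-MB-175 the values of 1054, 988, 984 and 955 at LG and 1122, 991, 979 and 999 at HG overlapped, with a change of 0.038 ± 0.050 (SE, adjusted p = 0.634). The HCC1500 and ZR-75-30 responses differed by 1.52 ± 0.17 (SE, adjusted p = 5.19e-07), the largest such difference among the members, and by 1.32 ± 0.064 (SE, adjusted p = 1.15e-13) without HG replicate 3.

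NOP58, its partner in the particle, moved the same way. In HCC1500 its values were 243, 240.4, 215 and 228 at LG and 324, 332, 441 and 310.2 at HG, a change of 0.59 ± 0.12 (SE, adjusted p = 0.0103), and of 0.48 ± 0.053 (SE, adjusted p = 3.95e-07) without HG replicate 3. In ZR-75-30 they were 554, 541, 525 and 633 at LG and 436, 417, 450.1 and 436 at HG, a change of -0.37 ± 0.055 (SE, adjusted p = 1.92e-05). Neither line's conditions overlapped. In MDA-MB-175 they were 390.1, 378, 377 and 402 at LG and 374, 359.6, 385 and 381 at HG, with overlap and a change of -0.045 ± 0.048 (SE, adjusted p = 0.544).

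DKC1 went down in 2 lines. In ZR-75-30 it fell from 770.1, 794, 776 and 812 at LG to 638, 593, 615 and 626 at HG, a change of -0.35 ± 0.040 (SE, adjusted p = 9.95e-07). In MDA-MB-175 it went from 643, 572, 649 and 652 to 576, 559, 541 and 586, a change of -0.15 ± 0.051 (SE, adjusted p = 0.0396), with LG replicate 2 lying within the range of the HG samples. That call was lost when LG replicate 1, 3 or 4 or HG replicate 1, 2 or 3 was left out, at adjusted p of 0.0547 to 0.118 with limma, and with median-of-ratios rescaling, edgeR or DESeq2, at 0.067 to 0.0741. In HCC1500 the values were 566, 546, 563 and 552 at LG and 599, 616, 720.3 and 643 at HG, all HG samples lying above all LG samples. The change there was 0.21 ± 0.080 (SE, adjusted p = 0.106), and 0.15 ± 0.037 (SE, adjusted p = 0.00157) without HG replicate 3. The members of the box H/ACA particle were thus not all alike in HCC1500, where NHP2 changed by 0.057 ± 0.30 (SE, adjusted p = 0.922) with all samples and by -0.29 ± 0.046 (SE, adjusted p = 2.48e-05) without HG replicate 3. FBL turned in the same way, from 0.061 ± 0.30 (SE, adjusted p = 0.916) to -0.30 ± 0.043 (SE, adjusted p = 9.29e-06), and these were the only members whose direction in HCC1500 turned with a call when that library was left out.

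Nucleolin (NCL), nucleophosmin (NPM1), NOLC1, nucleostemin (GNL3) and the RNA helicase DDX21 are abundant proteins that organize the nucleolus or chaperone its particles. Per kb of summed exon, NCL reached 618 normalized read counts in ZR-75-30 at LG and NPM1 1007, against 276 for NOLC1. NPM1 rose in ZR-75-30 by 0.65 ± 0.041 (SE, adjusted p = 3.6e-10), from 8369.6 ± 423 to 13105 ± 337, while its change in MDA-MB-175 was 0.000 ± 0.039 (SE, adjusted p = 0.997). In HCC1500 it was 0.45 ± 0.14 (SE, adjusted p = 0.0526) with all samples and 0.30 ± 0.025 (SE, adjusted p = 6.86e-09) without HG replicate 3. NPM1 has 49 named pseudogenes, with which its reads may be shared, and its values are uncertain to that extent. NCL fell by 0.16 ± 0.036 (SE, adjusted p = 0.00382) in MDA-MB-175, and it fell by 0.19 ± 0.034 (SE, adjusted p = 0.000113) in ZR-75-30. In HCC1500 the change of NCL was 0.27 ± 0.089 (SE, adjusted p = 0.0604) with all samples and 0.21 ± 0.026 (SE, adjusted p = 1.24e-06) without HG replicate 3. DDX21 rose in ZR-75-30 by 0.12 ± 0.042 (SE, adjusted p = 0.0281), and in HCC1500 without HG replicate 3 by 0.68 ± 0.031 (SE, adjusted p = 2.78e-12). With that library the HCC1500 change was 0.49 ± 0.17 (SE, adjusted p = 0.0712). The call of DDX21 in ZR-75-30 was lost without LG replicate 1 or 2 or HG replicate 1 or 3, at adjusted p of 0.0545 to 0.109 with limma, and at 0.121 under CPM.

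NOLC1, a scaffold that carries snoRNPs and binds RNA polymerase I, had the smallest interaction p of the members. In HCC1500 its values were 594, 616, 614 and 563 at LG and 823, 832, 786 and 819 at HG, a change of 0.45 ± 0.069 (SE, adjusted p = 0.00264), and of 0.47 ± 0.037 (SE, adjusted p = 4.69e-09) without HG replicate 3. In ZR-75-30 they were 1078, 1094, 1147 and 1057 at LG and 778, 724, 741 and 754 at HG, a change of -0.55 ± 0.040 (SE, adjusted p = 2.68e-09). In MDA-MB-175 they were 1281, 1246, 1306 and 1230.5 at LG and 1142, 1149, 1044 and 1132 at HG, a change of -0.18 ± 0.043 (SE, adjusted p = 0.00485). The gene thus rose in 1 line and fell in the other 2, with no overlap of conditions in any line, and the 3 responses differed pairwise, by -0.36 ± 0.065 (SE, adjusted p = 0.000548) between ZR-75-30 and MDA-MB-175, by 0.63 ± 0.065 (SE, adjusted p = 3.35e-07) between HCC1500 and MDA-MB-175 and by 0.99 ± 0.065 (SE, adjusted p = 2.42e-10) between HCC1500 and ZR-75-30. With HG replicate 3 left out, the differences that involve HCC1500 were 0.65 ± 0.054 (SE, adjusted p = 1.9e-09) and 1.01 ± 0.054 (SE, adjusted p = 6.63e-13).

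GNL3 was the only member called in the same direction in all 3 lines. Of the 14636 genes tested in all 3, 1.81% rose in each and 3.32% fell in each. A count of 1 member was thus near the background. In MDA-MB-175 its values were 947, 972, 879.7 and 931 at LG and 1198, 1127, 1087 and 1154 at HG, a change of 0.29 ± 0.045 (SE, adjusted p = 0.000145). In ZR-75-30 they were 1221, 1131, 1129 and 1293 at LG and 1571, 1482, 1529.5 and 1477 at HG, a change of 0.35 ± 0.045 (SE, adjusted p = 3.93e-06). In HCC1500 they were 332, 321, 332 and 328 at LG and 425, 468, 601 and 410.4 at HG, a change of 0.52 ± 0.12 (SE, adjusted p = 0.0186). The HG samples were above the LG samples in each line, and the interaction test gave an adjusted p of 0.279. Leaving out any 1 of the 4 HCC1500 LG samples ended the call in that line, at adjusted p of 0.0539 to 0.0608 with limma, as did the replicate block, at 0.0504. Without HG replicate 3 the change was 0.40 ± 0.047 (SE, adjusted p = 7.96e-07) and NHP2 joined as the member that fell in all 3.

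**Figure D3:**
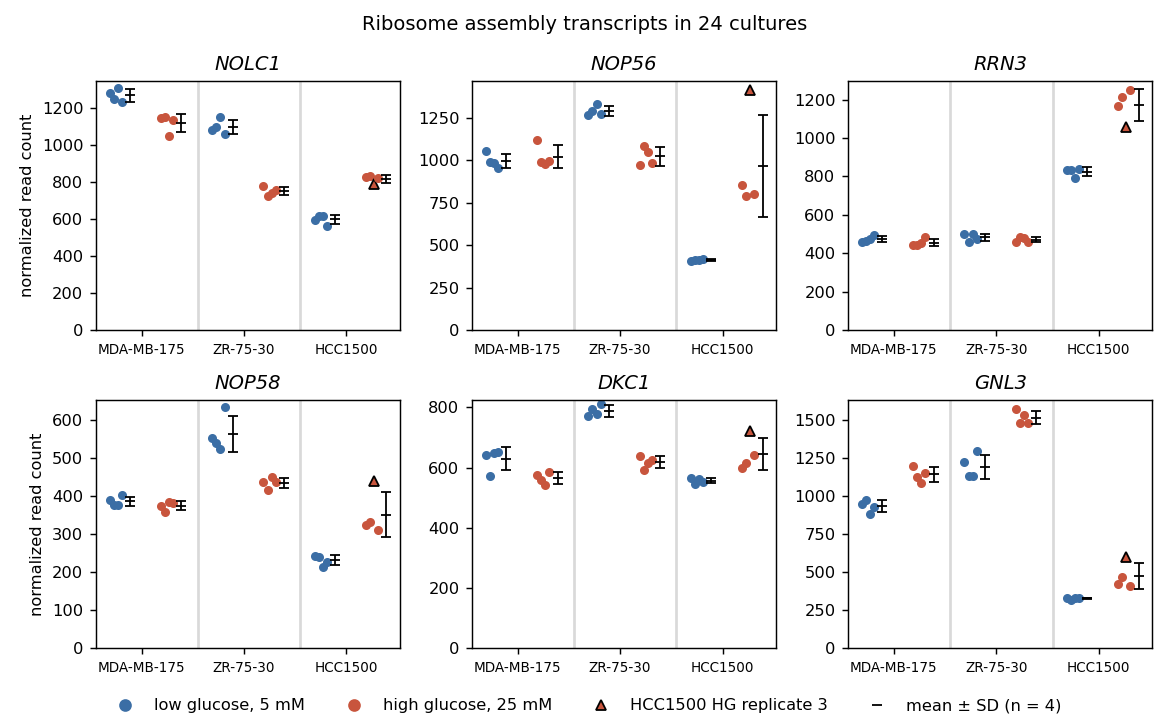
Normalized read count (y axis, from 0) in each sample for NOLC1, NOP56, RRN3, NOP58, DKC1 and GNL3. All but GNL3 are the members outside the MYC network with the smallest interaction p. Blue is low glucose and red high glucose, with the mean ± SD of 4 samples beside the points. In HCC1500 the red points lie above the blue ones for NOP56, NOP58, NOLC1, RRN3 and DKC1. In ZR-75-30 they lie below for NOP56, NOP58, NOLC1 and DKC1, and GNL3 is higher at high glucose in each line.

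The small subunit is assembled on the 5′ part of the precursor in the SSU processome, and UTP20, HEATR1, WDR3, WDR43, RRP9 and NOP14 are parts of that particle or act within it. BYSL and RRP12 act on later precursors of the small subunit, and DDX10 is an RNA helicase of the pathway. In ZR-75-30, 6 of the 9 fell, with log2 changes from -0.33 (BYSL) to -0.16 (RRP12), and none rose. In MDA-MB-175 none of the 9 passed the test, with changes from -0.20 (DDX10) to 0.023 (BYSL). In HCC1500, RRP12 rose by 0.58 ± 0.15 (SE, adjusted p = 0.028) and WDR43 by 0.54 ± 0.10 (SE, adjusted p = 0.00604), or by 0.41 ± 0.043 (SE, adjusted p = 1.83e-07) and 0.62 ± 0.054 (SE, adjusted p = 1.93e-08) without HG replicate 3. The call of RRP12 in HCC1500 was lost without any 1 of the LG samples, at adjusted p of 0.072 to 0.0819 with limma, and that of WDR43 under CPM, at 0.0665. In ZR-75-30 the calls of RRP12 (without LG replicate 3 or HG replicate 2 or 4), RRP9 (without LG replicate 1, 2 or 3 or HG replicate 1 or 4) and UTP20 (without LG replicate 2 or HG replicate 3 or 4) were lost, at adjusted p of 0.053 to 0.107 with limma, and with DESeq2, at 0.0569 to 0.0867. In HCC1500 without HG replicate 3, 6 of the 9 rose, from 0.18 (BYSL) to 0.62 (WDR43). BYSL, the bystin protein of late small subunit precursors, went from 202 ± 6.39 to 160.3 ± 6 in ZR-75-30, a change of -0.33 ± 0.062 (SE, adjusted p = 0.000213). WDR3, NOP14 and RRP9 fell there too, with log2 changes of -0.23, -0.23 and -0.22, and in HCC1500 their changes were 0.13, 0.082 and 0.47, none past the threshold. When HG replicate 3 was left out these were 0.24, 0.009 and 0.17, of which WDR3 passed, at an adjusted p of 0.000939 with limma. DDX10 was called neither in a line nor in HCC1500 without HG replicate 3, with changes of 0.013 in HCC1500, -0.20 in MDA-MB-175 and -0.13 in ZR-75-30. WDR43 rose from 203 ± 8.04 to 297 ± 32.5 (mean ± SD, n = 4) in HCC1500, and in ZR-75-30 its change was 0.13 ± 0.057 (SE, adjusted p = 0.0647).

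UTP20 and HEATR1 were, of all members, those in which HCC1500 HG replicate 3 lay farthest below the other HG samples. The HCC1500 values of UTP20 were 748, 699, 742 and 704 at LG and 1016, 988, 498 and 982 at HG, so that replicate 3 was the lowest of the 4 HG samples. Its change was 0.21 ± 0.22 (SE, adjusted p = 0.55) with that library and 0.46 ± 0.035 (SE, adjusted p = 2.16e-09) without it. HEATR1 had 491, 439, 462 and 459 at LG and 583, 563, 264 and 539.6 at HG, with changes of 0.008 ± 0.24 (SE, adjusted p = 0.986) and 0.28 ± 0.043 (SE, adjusted p = 2.14e-05). Both genes have over 8 kb of summed exon.

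The large subunit genes include BOP1, PES1 and WDR12, which form the PeBoW complex needed for maturation of the large subunit, NOP2, a ribosomal RNA methyltransferase, and NOP16 and RRP1B, which are nucleolar proteins. BOP1 fell by 0.33 ± 0.092 (SE, adjusted p = 0.0146) in MDA-MB-175, and in ZR-75-30 it fell by 0.32 ± 0.059 (SE, adjusted p = 0.000214). In ZR-75-30, WDR12 fell by 0.32 ± 0.080 (SE, adjusted p = 0.00304), whereas PES1 changed by -0.058 ± 0.047 (SE, adjusted p = 0.342). The 3 genes of the complex were therefore not called together. NOP2 rose in HCC1500 by 0.77 ± 0.15 (SE, adjusted p = 0.00795), from 522 ± 31.7 to 905 ± 215 (mean ± SD, n = 4), by 0.61 ± 0.047 (SE, adjusted p = 3.2e-09) without HG replicate 3, and in MDA-MB-175 by 0.17 ± 0.054 (SE, adjusted p = 0.0262). The call in MDA-MB-175 was lost without LG replicate 2 or 3 or HG replicate 2 or 4, at adjusted p of 0.0697 to 0.0756 with limma, and that of BOP1 in MDA-MB-175 without LG replicate 3, at 0.0546. Of the 4687 exon bases of NOP2, 2550 overlap another annotated gene on the same strand. In ZR-75-30, NOP16 fell by 0.24 ± 0.071 (SE, adjusted p = 0.0103), while its change in HCC1500 was 0.79 ± 0.26 (SE, adjusted p = 0.0681) and 0.48 ± 0.064 (SE, adjusted p = 3.5e-06) without HG replicate 3. RRP1B was 293 ± 10.5 and 283 ± 11 in ZR-75-30 (mean ± SD, n = 4), with a change of -0.051 ± 0.053 (SE, adjusted p = 0.465). When HG replicate 3 was left out, 5 of the 6 rose in HCC1500, from 0.23 (BOP1) to 0.61 (NOP2).

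The second question was how the lines differed in low glucose, before any response. In the 24-sample fit, 23 of the 36 members differed between ZR-75-30 and MDA-MB-175, 19 of them higher and 4 lower in ZR-75-30, where 24.3% of all genes tested were higher and 39.5% lower. The median log2 difference of the members was 0.29 beside -0.18 over all genes. Between HCC1500 and MDA-MB-175, 28 differed, 16 higher and 12 lower in HCC1500, where 37.9% of all genes were higher and 34.7% lower, and the medians were 0.12 and 0.053. Between HCC1500 and ZR-75-30, 30 differed, 8 higher and 22 lower in HCC1500, where 44% of all genes were higher and 29% lower, and the medians were -0.51 and 0.23. ZR-75-30 had the highest mean of the 3 lines for 20 members and HCC1500 the lowest for 16. With HCC1500 HG replicate 3 left out of the fit, which changes its estimate of the spread and no LG value, 21 members were higher and 6 lower in the first comparison, where 28.3% and 43.8% of all genes were. The second then had 18 and 14, where the shares were 41.6% and 37.9%, and the third 11 and 23, where they were 47.2% and 31.8%.

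These splits moved with the scaling. With values rescaled to CPM, which gives each sample the same total, 13 of 23 members were higher in ZR-75-30 than in MDA-MB-175, 19 of 29 were higher in HCC1500 than in MDA-MB-175 and 12 of 28 were higher in HCC1500 than in ZR-75-30. The median of all genes moved with it, from -0.18 to -0.37, from 0.051 to 0.16 and from 0.23 to 0.54. With median-of-ratios rescaling, 14 of 27 were higher in HCC1500 than in MDA-MB-175 and 6 of 30 higher than in ZR-75-30. Of the called members, WDR12 changed sign against ZR-75-30 in both comparisons under CPM, and NCL changed sign between HCC1500 and ZR-75-30 under median-of-ratios rescaling.

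MYC differed most between the lines. Its mean at LG was 257 ± 7.81 (SD, n = 4) in HCC1500, 20.3 ± 2.17 in MDA-MB-175 and 692 ± 33.2 in ZR-75-30. On the log2 scale, ZR-75-30 exceeded MDA-MB-175 by 5.03 ± 0.13 (SE, adjusted p = 1.54e-19), and HCC1500 differed from ZR-75-30 by -1.43 ± 0.13 (SE, adjusted p = 8.79e-10). The difference between ZR-75-30 and MDA-MB-175 was the largest of any member in the 3 comparisons at LG, and the ranges of the lines did not overlap at LG or at HG. MXI1, the repressor, had the same order, with 101 ± 3.95, 39.6 ± 7.26 and 212 ± 9.04. MXD1 had another, with 191 ± 14.5, 91.2 ± 10.2 and 71.6 ± 4.42.

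Among the assembly genes, UTP20 was higher in HCC1500 than in ZR-75-30 by 1.78 ± 0.14 (SE, adjusted p = 1.17e-10), and for GNL3 the same difference was -1.86 ± 0.081 (SE, adjusted p = 1.85e-15). WDR3 and NOP14 were higher in ZR-75-30 than in MDA-MB-175, by 1.72 ± 0.077 (SE, adjusted p = 4.87e-15) and 1.50 ± 0.063 (SE, adjusted p = 1.39e-15). BOP1 was 832 ± 42 in ZR-75-30 against 294 ± 45.8 in MDA-MB-175 and 284 ± 13.9 in HCC1500. UBTF was 751 ± 24.1 in HCC1500, 712 ± 27.3 in MDA-MB-175 and 699 ± 12.6 in ZR-75-30, and no pair of lines passed the threshold for it or for NHP2 with all samples. With HCC1500 HG replicate 3 left out of the fit, UBTF passed between HCC1500 and ZR-75-30, at 0.10 ± 0.036 (SE, adjusted p = 0.0112), and NHP2 passed against MDA-MB-175 in both comparisons, at 0.30 ± 0.070 (SE, adjusted p = 0.000505) for HCC1500 and 0.25 ± 0.070 (SE, adjusted p = 0.0027) for ZR-75-30. NOP56, which rose in HCC1500 and fell in ZR-75-30, was 413 ± 5.59 in HCC1500 and 1291 ± 30.8 in ZR-75-30 at LG, and 966 ± 302 and 1023 ± 55.5 at HG. At HG the difference between the lines was -0.13 ± 0.12 (SE, adjusted p = 0.339) with all samples and -0.33 ± 0.047 (SE, adjusted p = 8.57e-07) without HG replicate 3, the only HCC1500 sample that lay above those of ZR-75-30. The median difference of the members between HCC1500 and ZR-75-30 was -0.51 at LG and 0.16 at HG, beside 0.23 and 0.19 over all genes, and the value at HG was -0.026 without HG replicate 3, beside 0.14 over all genes.

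**Figure D4:**
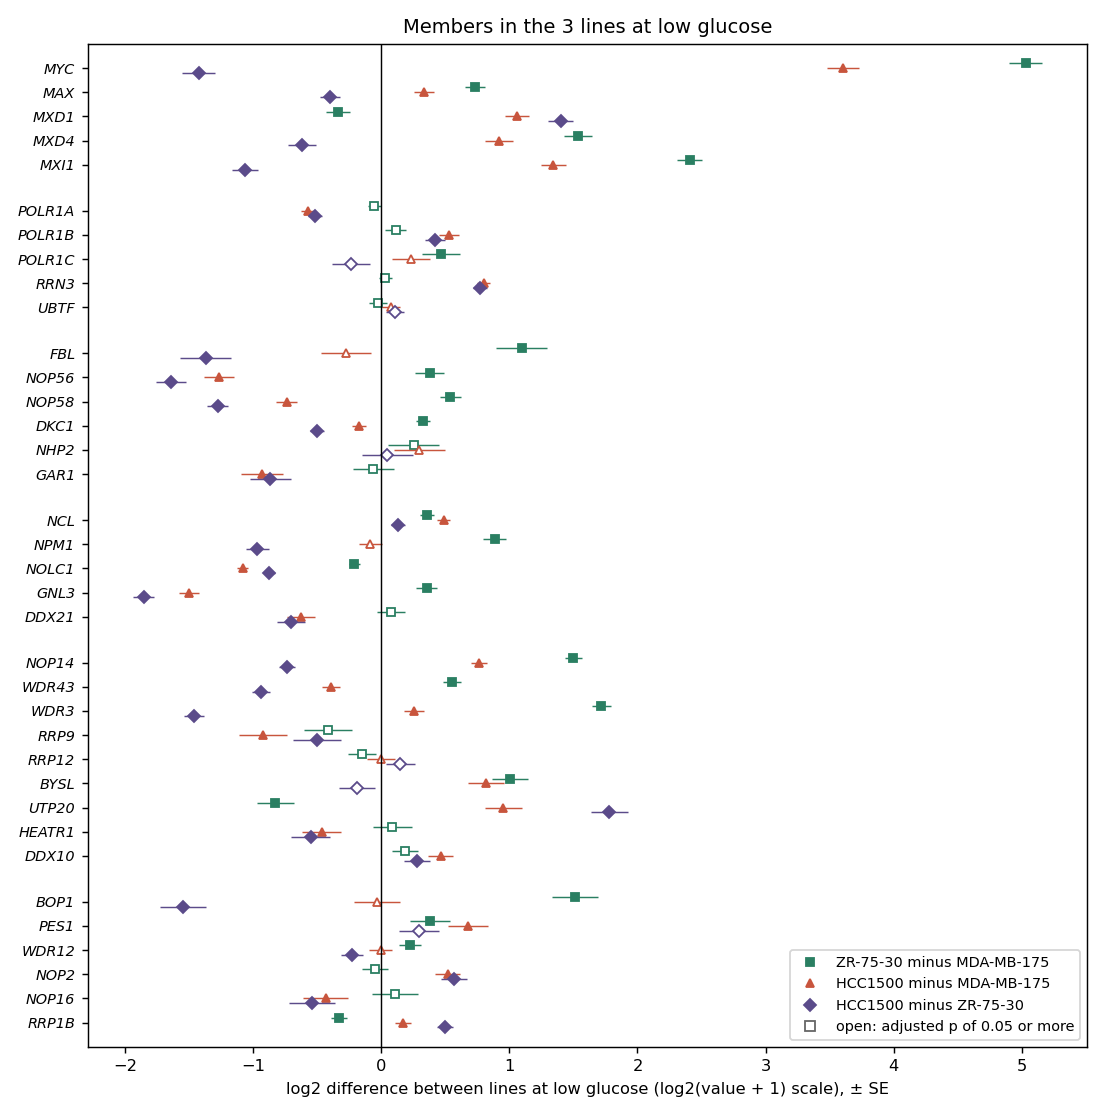
Log2 difference between lines at low glucose (x axis) for each of the 36 members, with bars of ± 1 SE from the 24-sample limma fit and filled symbols for an adjusted p under 0.05. MYC lies farthest to the right for ZR-75-30 against MDA-MB-175, at 5.03, and 22 members lie left of 0 with a filled symbol for HCC1500 against ZR-75-30.

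Other genes of the pathway were taken from 7 lists. Over all genes tested, 23.4% rose and 22.7% fell in ZR-75-30, and 11.9% rose and 13.7% fell in MDA-MB-175. In HCC1500, 7.46% rose and 13% fell, or 20.9% and 37.7% without HG replicate 3. These shares belong beside the counts of each list. Of 42 other small subunit assembly factors, 3 rose and 26 fell in ZR-75-30, 1 rose and 7 fell in MDA-MB-175, and 14 rose and 0 fell in HCC1500, or 25 and 6 without HG replicate 3. In this list, falls in ZR-75-30 and rises in HCC1500 were thus above those shares, while falls in MDA-MB-175 were near theirs. RRP7A fell by 0.48 in ZR-75-30 while UTP25, listed as DIEXF, rose by 0.64 in HCC1500 on the log2 scale. Of 46 other large subunit factors, 7 rose and 16 fell in ZR-75-30, 1 rose and 5 fell in MDA-MB-175, and 14 rose and 0 fell in HCC1500, or 31 and 5 without HG replicate 3. URB2 fell by 0.28 in MDA-MB-175 and fell by 0.79 in ZR-75-30. Both DDX55 and RSL1D1 rose in HCC1500, by 0.80 and 0.71. RSL1D1 also rose in ZR-75-30, by 0.39. Of the 14 exosome genes, which trim ribosomal RNA, 1 rose and 5 fell in ZR-75-30, 0 rose and 4 fell in MDA-MB-175, and 1 rose and 1 fell in HCC1500, or 3 and 4 without HG replicate 3.

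Of 10 other genes of RNA polymerase I and its promoter factor, 4 rose and 2 fell in ZR-75-30, 2 rose and 1 fell in MDA-MB-175, and 2 rose and 1 fell in HCC1500, or 4 and 2 without HG replicate 3. The shares of all genes are those given above. TAF1D, a part of the promoter selectivity factor, rose by 0.81 in HCC1500, 0.26 in MDA-MB-175 and 1.16 in ZR-75-30. POLR1D, a subunit shared with RNA polymerase III, rose by 0.96 in ZR-75-30, unlike the 4 member subunits and factors that fell there. Of 9 other snoRNP proteins, 1 rose and 3 fell in ZR-75-30, 1 and 3 in MDA-MB-175, and 1 and 1 in HCC1500, or 3 and 4 without HG replicate 3. ZNHIT6, an assembly factor of box C/D particles, rose by 0.86 in HCC1500.

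Of 8 other genes of the MYC network, 3 rose and 3 fell in ZR-75-30, 2 and 2 in MDA-MB-175, and 2 and 2 in HCC1500, or 4 and 3 without HG replicate 3. Beside them stand the same shares of all genes. MYCN, a paralog of MYC, fell in each line, with log2 changes of -1.42 in HCC1500, -0.69 in MDA-MB-175 and -1.27 in ZR-75-30. Its means at LG, low in HCC1500 and ZR-75-30, were 13.9, 83.8 and 17.4 in that order, against 257, 20.3 and 692 for MYC. MXD3, a repressor of the MXD family, fell too, with log2 changes of -1.04, -0.52 and -1.21 in the same order. MLX, which partners the glucose-sensing factors MLXIP and MLXIPL, rose by 0.72 in MDA-MB-175 and 0.30 in ZR-75-30, and MLXIPL rose by 1.01 in ZR-75-30.

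Of 20 MYC targets outside ribosome assembly, 18 or 19 were tested in a line, beside the same shares of all genes. In ZR-75-30, 4 rose and 11 fell, in MDA-MB-175, 3 rose and 8 fell, and in HCC1500, 5 rose and 0 fell, or 7 and 4 without HG replicate 3. ODC1, the rate-limiting enzyme of polyamine synthesis, rose in HCC1500 by 1.66, from a mean of 82.2 to 264, and fell by 0.20 in ZR-75-30. CDKN1A, a cell cycle inhibitor that MYC represses, rose in ZR-75-30 by 0.94 and in HCC1500 by 0.94. These rises are part of the counts above, so a rise does not mean the same for every gene of the list. NME1, a nucleoside diphosphate kinase, fell by 0.31 in MDA-MB-175 and fell by 0.60 in ZR-75-30. LDHA, lactate dehydrogenase A, rose by 0.25 in MDA-MB-175 and fell by 0.42 in ZR-75-30. The named genes of all 7 lists passed the test in each line for which a rise or fall is given. Their changes in HCC1500 include HG replicate 3, which shifted many genes, and their changes without it are not given here.

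HCC1500 HG replicate 3 departed from the other 3 HG samples by an amount that moved with the summed exon length of the gene. That length joins the exons of all annotated transcripts, so it can exceed the length of the transcript that was expressed. The log2 difference between its value and the mean of the other 3 ran from -1.08 for HEATR1 to 1.43 for FBL, with a median of 0.46 over the 36 members and 0.27 over 12710 genes with a mean of at least 10. For the 6 members with under 3 kb of summed exon the median was 1.21, for the 18 of 3 to 8 kb it was 0.46, and for the 12 of 8 kb and over it was 0.07. Over all genes of the same length classes the medians were 0.94 (2614 genes), 0.29 (6609) and -0.30 (3209). The members thus followed the order of all genes. The RNA quality of that sample is not given in the sources used here, and its part in these differences was not tested.

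**Figure D5:**
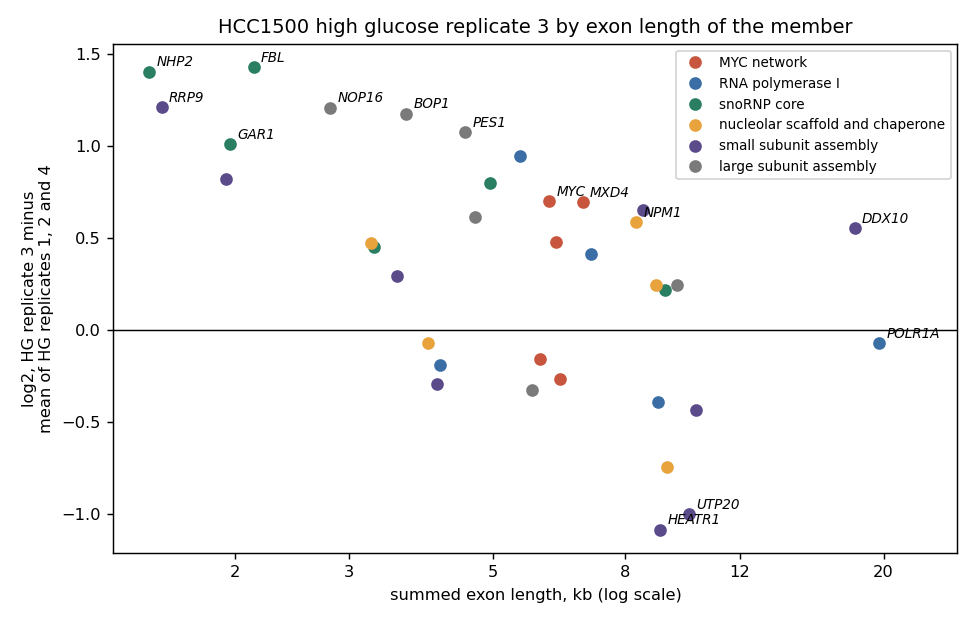
Summed exon length of each of the 36 members (x axis, kb, log scale) against the log2 difference between HCC1500 HG replicate 3 and the mean of the other 3 high glucose samples (y axis). Members under 3 kb had a median of 1.21 and those of 8 kb and over a median of 0.07, with HEATR1 lowest at -1.08.

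In HCC1500 the scaling also touched the count of all genes. With median-of-ratios rescaling, 1726 genes rose and 1802 fell in place of 1221 and 2129, and 18 members rose and 1 fell. Without HG replicate 3 the same rescaling gave 4665 and 4577 genes in place of 3390 and 6114, moved the median of all genes from -0.12 to -0.011, and left 30 members higher and 3 lower.

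Several members carry genes for other RNAs within them. A snoRNA gene lies inside 8 of the 36 (MXD1, POLR1C, NOP56, NOP58, DKC1, NCL, GNL3 and WDR43), with 22 snoRNA genes in all, compared with 2.49% of the 15063 protein-coding genes of the table. In ZR-75-30, 1 of the 8 rose and 5 fell, in MDA-MB-175, 2 rose and 2 fell, and in HCC1500, 6 rose and 0 fell, or 8 and 0 without HG replicate 3. Of the other 28, 4 rose and 16 fell, 2 rose and 5 fell, and 5 rose and 1 fell in the same order, or 18 and 4 in HCC1500 without HG replicate 3. Over all genes tested, 23.4% rose and 22.7% fell in ZR-75-30, and 11.9% rose and 13.7% fell in MDA-MB-175. In HCC1500, 7.46% rose and 13% fell, or 20.9% and 37.7% without HG replicate 3. Whether the snoRNAs inside the 8 members changed was not analysed here. Exons of 20 members overlap those of another gene, and the strand used for counting is not given in the sources used here, so reads in the overlaps cannot be assigned.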

How the data were processed

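Cells of 3 ER+ breast cancer lines were kept at 5 or 25 mM glucose for 48 hours, and 24 libraries, 4 per group, were sequenced. The authors deposited 1 table of normalized signal values for 18889 genes, without a stated unit. Each value equaled a whole number of reads times 1 factor per sample, within 0.05 reads, so reads were recovered by division. The submitters' processing notes name edgeR and hg38, whereas the study's methods, written for tumors, name TopHat, hg19, DESeq2 for tests and edgeR for CPM scaled by TMM, so the build, scaling and strand of the counting remain uncertain.

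Deposited values were tested as log2(value + 1) with limma 3.58.1 in R 4.3.3, with a trend in the variance prior and Benjamini-Hochberg adjustment over all genes that reached 0.5 in at least 4 samples. Adjusted p under 0.05 was called. Each line was fitted on its 8 samples, and differences between lines on all 24. A fold change on this scale understates the change of low genes. edgeR 4.0.16 and DESeq2 1.42.0 on recovered reads, pseudocounts of 0.5 and 5, no filter, rescaling to CPM or by median of ratios, the replicate number as a block and leaving out each sample in turn were alternatives, and those that combine leaving out HCC1500 HG replicate 3 with another setting were chosen after seeing the data. The fits were also run on simulated counts that had the same extra spread for every gene and no sample that departed like HCC1500 HG replicate 3. That run cannot show how the fits behave with such a sample. The exon lengths and overlaps came from GENCODE on GRCh37, matched by gene ID for 96.3% of genes, and promoter windows from RefSeq on GRCh38.p14.

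The members and all lists were chosen with earlier results of these data known, and an adjusted p over the list alone is therefore not given. Sample values are given for the 5 MYC network genes, for members called alike in all 3 lines and for the 6 with the smallest interaction p, and from the other lists up to 2 genes per direction and line with the smallest p could be named. UTP20 and HEATR1 were added after their values were seen. Recovered reads totaled 9140024 to 17998819 per sample, and the floor of 3 reads covers counting error only.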

Additional observations from a re-analysis of the deposited data

Results flagged for a closer look

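In 32 of the 216 groups of 4 samples tested (36 members in 6 groups), 1 sample stood so far from the others that its gap to the nearest, divided by the range of the group, exceeded Dixon's critical value for 4 samples, which chance alone would give in about 1 in 20 groups. Of these, 21 were HCC1500 HG replicate 3, with normalized read counts of MYC (649.7), MAX (510.1), MXD4 (248), UBTF (1031), FBL (1046), NOP56 (1418), NOP58 (441), NHP2 (881), NCL (8297), NPM1 (7919), DDX21 (748), RRP9 (226), RRP12 (632), UTP20 (498), HEATR1 (264), DDX10 (187), BOP1 (752), PES1 (2045), NOP2 (1223), NOP16 (440.3) and RRP1B (434). The other 11 were spread over the lines, namely MXD4 in ZR-75-30 LG replicate 2 (394), MXD4 in HCC1500 LG replicate 1 (261), NOP56 in MDA-MB-175 HG replicate 1 (1122), DKC1 in MDA-MB-175 LG replicate 2 (572), NOLC1 in MDA-MB-175 HG replicate 3 (1044), NOP14 in ZR-75-30 LG replicate 2 (539), WDR3 in HCC1500 LG replicate 3 (224), RRP12 in ZR-75-30 LG replicate 3 (289), UTP20 in MDA-MB-175 LG replicate 1 (346), NOP2 in MDA-MB-175 LG replicate 1 (402) and NOP2 in ZR-75-30 HG replicate 3 (376).

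The response to high glucose differed between the lines for 27 members by the limma interaction test on all 24 samples. The adjusted p-values were MYC (0.007), MAX (0.00541), MXD1 (0.00444), MXD4 (8.04e-05), MXI1 (6.23e-06), POLR1B (0.00077), POLR1C (0.000267), RRN3 (3.72e-06), UBTF (0.00194), NOP56 (8.75e-07), NOP58 (5.54e-06), DKC1 (3.65e-05), GAR1 (0.00231) and NCL (4.39e-05). For the remaining 13 members they were NPM1 (0.00132), NOLC1 (7.39e-10), DDX21 (0.0338), NOP14 (0.0279), WDR43 (0.000235), WDR3 (0.0441), RRP12 (0.00164), BYSL (0.0276), BOP1 (0.0158), WDR12 (0.0279), NOP2 (0.000534), NOP16 (0.00591) and RRP1B (0.00256).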

How the results depend on the processing

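Of the counts of members called, those of the interaction and of the 3 comparisons between lines at LG stayed within 1.5 times the reported count under every alternative run, at 24 to 32, 21 to 27, 26 to 32 and 28 to 34 when 1 sample was left out. The fit on all 24 samples called 24 members in HCC1500, 5 in MDA-MB-175 and 16 in ZR-75-30. In HCC1500, 19 were called with median-of-ratios rescaling and with edgeR and 24 with DESeq2, and leaving out 1 sample gave 8 to 30, the highest without HG replicate 3. Without that library, 33, 29, 33 and 30 were called with median-of-ratios rescaling, CPM, edgeR and DESeq2. The median log2 change in HCC1500 was 0.279 to 0.442 with 1 sample left out, and in MDA-MB-175 it was -0.042 with edgeR and -0.045 with DESeq2. The cause of these shifts was not tested.

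Members called alike in all 3 lines numbered 0 to 2 with 1 sample left out (0 without any HCC1500 LG replicate, 2 without ZR-75-30 HG replicate 2 or HCC1500 HG replicate 3), and 3, 2, 3 and 2 without HCC1500 HG replicate 3 under the 4 settings above. Without HCC1500 HG replicate 3, the log2 change of FBL in HCC1500 turned to -0.296 (-0.296 to 0.201 over each sample left out), and to -0.177, -0.27, -0.183 and -0.176 under the same settings. That of NHP2 turned to -0.295 (-0.295 to 0.187), and to -0.176, -0.269, -0.181 and -0.175. For single members, 557 of the values in MDA-MB-175 and 551 in ZR-75-30 kept direction and call, 14 and 20 lost the call, and 5 and 5 gained it. In HCC1500, 573 kept both, 22 lost the call, 115 gained it and 10 turned.

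Deviations of samples with the same replicate number had correlations of -0.05 to 0.07 in HCC1500, -0.04 to 0.16 in MDA-MB-175 and 0.02 to 0.07 in ZR-75-30. Their means were 0.02, 0.05 and 0.04, against -0.01, -0.02 and -0.01 for different numbers. These correlations were weak, but with so few samples per group they cannot settle whether the numbers pair the samples. With the replicate number as a block, 10, 11 and 27 members were called in HCC1500, MDA-MB-175 and ZR-75-30, 0 were called alike in all 3 lines, and the interaction passed for 26. At LG, 24, 28 and 30 differed between lines with the block.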
